A study of Mus musculus with 12 samples.

Results

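Kinesins are the motor proteins that walk along microtubules, and their genes were followed here through hippocampal RNA of Shank2 mutant mice. Members were all genes whose symbol begins with Kif followed by a digit or the letter c. The annotation holds 47 such genes, of which 45 were listed in at least 1 of the 12 libraries and 40 in all 12, among 24590 genes listed in all. By known function 17 are transport motors, 14 mitotic motors, 6 kinesins of cilia and centrioles and 5 other kinesins. Kif1bp is a protein that binds kinesins and is no motor, and 4 entries are pseudogenes or non-coding transcripts (Kif16bos, Kifc5c-ps, Kif22-ps and Kif4-ps). The mice came in 4 groups of 3: knockouts lacking exon 7 of Shank2 (exon 7 KO), their wild-type controls (exon 7 WT), knockouts lacking exons 6 and 7 (exon 6-7 KO), and their wild-type controls (exon 6-7 WT). All shared a background that the labels spell "mixed C57BL/6J and C57BLl/6N", and no other allele or treatment is labelled. The labels describe male littermates, 8 to 15 weeks old where behaviour was tested, and give no separate age for the mice used for RNA. Each mouse carries its own number, so replicates are single animals. Whole hippocampi were used, so that fewer cells of a type and less RNA per cell cannot be told apart in any value below.

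A kinesin motor domain burns ATP to step along a microtubule. Most kinesins move towards the plus end, which in an axon points away from the cell body, and carry vesicles, mitochondria, mRNA granules or receptors; a few move towards the minus end, and kinesin-13 members take microtubules apart. In dividing cells other kinesins build the spindle, align chromosomes and split the daughter cells. In neurons, which have left the cell cycle, kinesin-1 (Kif5) and kinesin-3 (Kif1) carry much of the traffic from the cell body to synapses, and kinesin-2 also serves inside cilia.

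Values are FPKM, a measure of fragments counted on a gene divided by its transcript length and by the mapped total of the library, which the authors deposited per gene. They were divided by a factor per library (0.919 to 1.07) and are called scaled FPKM below; FPKM keep no read total, so depth is unknown. Genes listed per library numbered 19515 to 20334. The 4 libraries KO969, WT628, KO776 and WT778, 1 in each group, stood apart from the other 8: the gene ENSMUSG00000095746 was at 0 in them and at 218 to 435 FPKM in the others. Results that rest on them are given within these 4 and within the other 8. Mitochondrial transcripts made up 10.3 to 14.3% of summed FPKM in exon 7 mice and 6.22 to 7.39% in exon 6-7 mice. Shank2, which encodes a synaptic scaffold, was at 33.2 to 44.6 scaled FPKM in exon 7 KO and 36.0 to 44.1 in exon 7 WT, and at 6.15 to 7.02 in exon 6-7 KO and 13.8 to 14.9 in exon 6-7 WT. The log2 fold change was −0.02 in the exon 7 line (95% interval −0.28 to 0.24) and −1.04 in the exon 6-7 line (SE 0.119, limma adjusted p = 0.0111), so a gene-level value checks the genotype labels in the exon 6-7 line alone. Neuronal markers of the hippocampus were present in every library, among them Prox1 (7.41 to 34.9 FPKM), Slc17a7 (393 to 487) and Snap25 (862 to 1082).

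Transport kinesins made up nearly all of the kinesin RNA. All 17 were listed in every library. Their summed level was 1241 to 1567 scaled FPKM in exon 7 KO, 1318 to 1724 in exon 7 WT, 787 to 906 in exon 6-7 KO and 763 to 944 in exon 6-7 WT. The ranges of KO and WT mice of a line overlapped, and both groups of the exon 7 line lay above both groups of the exon 6-7 line.

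The kinesin-1 heavy chains Kif5a and Kif5c had the highest means over the 12 mice. Kif5a (ENSMUSG00000074657, chr10:127225696-127263348, minus strand, GRCm38), the heavy chain enriched in neurons, was at 314, 387 and 377 scaled FPKM in exon 7 KO mice KO969, KO990 and KO994 and at 354, 404 and 442 in exon 7 WT mice WT628, WT993 and WT999. It was at 231, 268 and 306 in exon 6-7 KO mice KO776, KO777 and KO864 and at 231, 268 and 312 in exon 6-7 WT mice WT778, WT809 and WT865. The mouse with the lowest value in each group was the one of the 4 libraries that stood apart. Kif5c (ENSMUSG00000026764, chr2:49619298-49774778, plus strand), also neuronal, was at 194, 326 and 314 in exon 7 KO, 208, 360 and 367 in exon 7 WT, 101, 103 and 105 in exon 6-7 KO, and 99.2, 98.7 and 113 in exon 6-7 WT, in the same order of mice. The low values of KO969 and WT628 gave Kif5c the widest spread of the 3 heavy chains within the exon 7 line, with means of 278 ± 73.4 in KO and 312 ± 90.2 in WT (SD, n = 3 each). Kif5b, the heavy chain found in most tissues, was lower, at 65.6, 61.7 and 64.0 in exon 7 KO, 69.4, 70.6 and 82.5 in exon 7 WT, 25.1, 22.7 and 26.7 in exon 6-7 KO, and 21.7, 21.4 and 24.98 in exon 6-7 WT.

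Of the kinesin-3 motors, Kif1a (chr1:93015464-93101951, minus strand), which carries synaptic and dense-core vesicle precursors, was at 159, 210 and 209 scaled FPKM in exon 7 KO, 164, 228 and 224 in exon 7 WT, 66.3, 75.4 and 71.8 in exon 6-7 KO, and 58.3, 67.5 and 76.4 in exon 6-7 WT. Kif1b (chr4:149176319-149307693, minus strand), a motor of mitochondria and synaptic vesicle precursors, was at 158, 157 and 148 in exon 7 KO, 158, 152 and 159 in exon 7 WT, 51.6, 48.6 and 44.8 in exon 6-7 KO, and 46.5, 43.6 and 47.2 in exon 6-7 WT. KO and WT values of both genes overlapped within each line, and every exon 7 mouse lay above every exon 6-7 mouse. Kif1c, a related motor found in many tissues, ran the other way, with means of 25.2 ± 1.04 in exon 7 KO, 25.7 ± 1.52 in exon 7 WT, 31.5 ± 0.969 in exon 6-7 KO and 31.4 ± 1.73 in exon 6-7 WT (SD, n = 3 each). Of the endosomal motors, Kif13a averaged 4.57 over all 12 mice and Kif16b 2.44. Kif13b, which binds the scaffold Dlg1, was at 5.63, 4.79 and 4.67 in exon 7 KO, 6.27, 5.43 and 6.99 in exon 7 WT, 1.25, 1.19 and 1.19 in exon 6-7 KO, and 0.568, 0.667 and 1.27 in exon 6-7 WT. WT865 had the highest Kif13b of the exon 6-7 line, although the other 2 WT mice had the lowest.

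Among kinesin-2 motors, Kif3a and Kif3b, which together drive intraflagellar transport, averaged 67.1 and 17.96 scaled FPKM over the 12 mice, and Kif3c, another partner of Kif3a, averaged 41.5. Kif17, which carries NMDA receptor subunits in dendrites, averaged 7.96 and ran from 6.55 to 8.97 over all 12 mice. Kif21a and Kif21b, kinesin-4 motors that restrain microtubule growth, averaged 31.3 and 10.7. The minus-end motors Kifc2 and Kifc3 averaged 144 and 14.5, and over the 12 mice only Kif5a and Kif5c had higher means than Kifc2. Antisense or neighbouring genes on the opposite strand cover 35.3% of the exonic bases of Kif3c, 24.1% of Kifc3 and 4.15% of Kifc2. The strand setting of the counting is not stated in the labels or file headers, so that their reads cannot be told apart and these 3 levels are uncertain.

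The order of the leading motors depended on the line. In the exon 6-7 line Kif5a was followed by Kifc2, at 135 to 160 in KO and 141 to 171 in WT, which lay above every value of Kif5c there. In the exon 7 line Kif5c and Kif1a followed Kif5a, with overlapping values, and Kifc2 was at 106 to 149 in KO and 105 to 152 in WT. Kif1a and Kif5c were therefore above Kifc2 in all 6 exon 7 mice and below it in all 6 exon 6-7 mice.

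**Figure D1:**
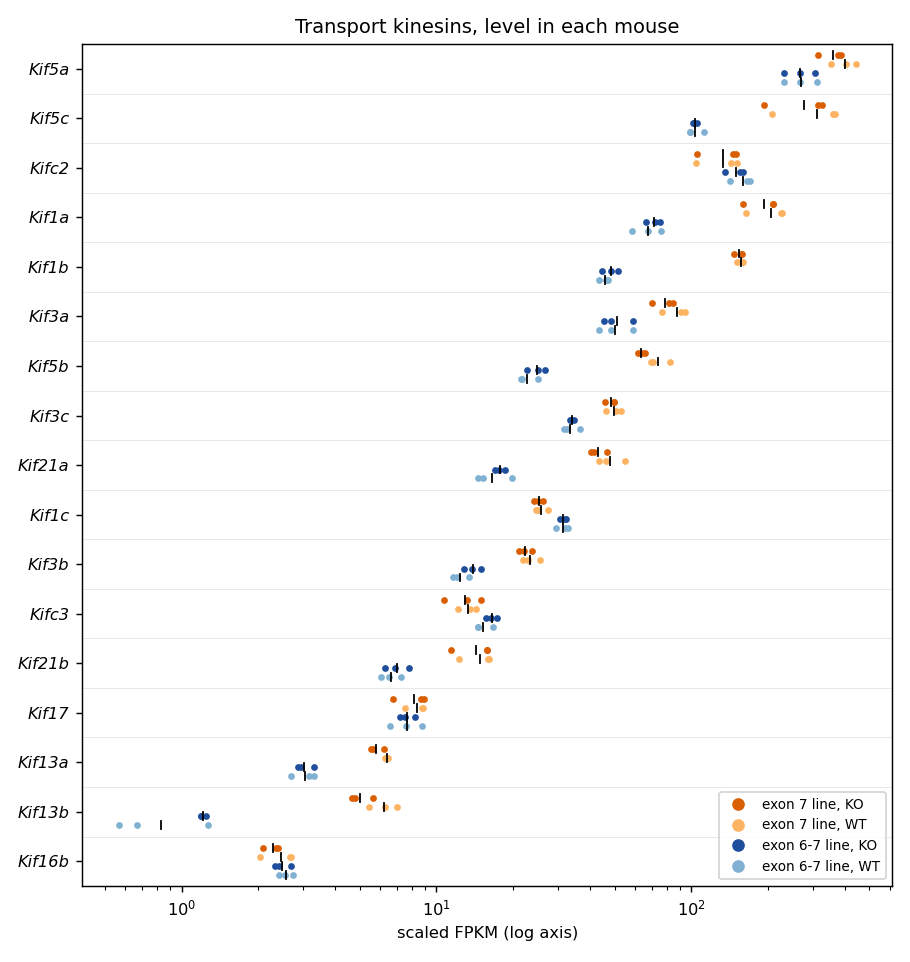
Level of each of the 17 transport kinesins (scaled FPKM, log axis) in every mouse; a point is a mouse, a black tick the mean of 3 mice, and colours mark the 4 groups. Kif5b, Kif1a and Kif1b show exon 7 mice apart from exon 6-7 mice with no overlap, whereas KO and WT mice of a line overlap for most genes.

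Mitotic kinesins were listed at low levels. Of the 14, 13 were listed in all 12 libraries, none had a mean of 1 scaled FPKM, and the highest single value was 1.23, for Kif22 in KO777. The median of the 14 means was 0.367, against 31.3 for the 17 transport kinesins. Their summed level was 5.46 to 6.93 in exon 7 KO, 4.62 to 5.63 in exon 7 WT, 4.32 to 5.75 in exon 6-7 KO and 5.02 to 5.63 in exon 6-7 WT. Sums of 12 other proliferation genes were 9.31 to 10.9, 8.58 to 10.2, 10.7 to 11.7 and 9.97 to 11.5 scaled FPKM in the same groups. Both sets of ranges overlapped across the 4 groups, apart from the proliferation sums of exon 7 WT and exon 6-7 KO.

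Spindle motors with the highest means were the minus-end motors Kifc5b (0.770 scaled FPKM) and Kifc1 (0.672), the chromokinesin Kif22 (0.714) and Kif11 (0.641), which pushes spindle poles apart. Kifc1 and Kifc5b are near copies: 38.6% of 50-base windows of Kifc1 and 36.6% of those of Kifc5b occur in the other, so the split of their reads is uncertain. Lower were the chromokinesin Kif4 (0.435), the chromosome alignment motors Kif18a (0.415) and Kif18b (0.243), and the cytokinesis motors Kif20a (0.391), Kif23 (0.344), Kif20b (0.214) and Kif14 (0.0671). The cell cycle gene Cdc23 and the gene Pdzd11 overlap 29.3% of Kif20a and 15.1% of Kif4 on the opposite strand. The spindle motor Kif15 averaged 0.193 and the microtubule depolymerase Kif2c 0.239, and its relative Kif2b was listed in KO777 alone, at 0.0332.

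RefSeq promoters of GRCm38.p6 were matched for 34 of the 47 genes, and the 250 bases before each RefSeq start were searched on both strands for 4 short motifs. Genes of cell division often carry a CCAAT box (CCAAT or ATTGG) and a cell cycle homology region (TTTGAA or TTCAAA). The CCAAT box stood in 9 of 13 mitotic and 3 of 11 transport promoters, and in 34.5% of all 27025 promoters of this length. The cell cycle homology letters stood in 5 of 13 mitotic and 0 of 11 transport promoters, and in 16.3% of all. The GC box (GGGCGG or CCGCCC) stood in 6 of 13 and 7 of 11, and in 32.9% of all. An arm of the X-box, the site of RFX factors in genes of cilia (GTTGCC or GGCAAC), stood in 2 of 13 mitotic, 4 of 11 transport and 1 of 5 cilia promoters, and in 10.5% of all. A match here is a description of letters, with no binding measured. Kif11 is shown as a mitotic promoter with the first 3 of these motifs, Kif4 as one with a pair of CCAAT boxes and no cell cycle homology letters, and Kif1a as an abundant transport motor with none of the 4 motifs. They lie at chr19:37376132-37376381 (plus), chrX:100625815-100626064 (plus) and chr1:93101875-93102124 (minus), are written 5′ to 3′, and have the motif letters in capitals. RefSeq starts differ from the gene bounds of the annotation used for the coordinates. By those bounds the Kif4 stretch lies inside its gene, which starts at chrX:100625737, and the Kif1a stretch runs into its gene.
Kif11: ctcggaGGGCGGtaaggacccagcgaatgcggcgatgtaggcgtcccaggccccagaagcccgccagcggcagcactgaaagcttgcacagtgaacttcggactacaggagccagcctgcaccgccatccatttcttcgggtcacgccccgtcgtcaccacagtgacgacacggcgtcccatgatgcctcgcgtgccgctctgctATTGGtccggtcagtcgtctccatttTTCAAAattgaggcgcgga
Kif4: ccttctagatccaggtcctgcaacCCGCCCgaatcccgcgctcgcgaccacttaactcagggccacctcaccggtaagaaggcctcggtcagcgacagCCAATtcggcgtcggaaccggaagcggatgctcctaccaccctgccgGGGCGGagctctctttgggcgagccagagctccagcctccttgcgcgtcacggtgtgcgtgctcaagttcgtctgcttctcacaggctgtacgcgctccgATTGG
Kif1a: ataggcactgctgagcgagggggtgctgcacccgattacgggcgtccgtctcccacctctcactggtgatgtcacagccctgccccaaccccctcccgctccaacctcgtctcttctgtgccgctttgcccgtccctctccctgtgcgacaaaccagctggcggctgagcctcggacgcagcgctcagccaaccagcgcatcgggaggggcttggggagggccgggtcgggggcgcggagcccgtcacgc

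Of the 47 genes, 25 had a mean of at least 1 scaled FPKM and were tested with limma on log2(scaled FPKM + 1) among 14212 genes: all 17 transport motors, 4 of 6 cilia kinesins, 3 of 5 other kinesins and Kif1bp. Kif26b and Kif27 passed this filter through the exon 7 line, since their exon 6-7 group means were at most 0.698 and 0.935. In the knockout comparisons 0 of the 25 genes had an adjusted p under 0.05 in the exon 7 line, against 0% of all genes, and 0 of 25 in the exon 6-7 line, against 0.0141% of all genes. At an unadjusted limma p under 0.05 there was 1 gene in each line, Kif5b in the exon 7 line and Kif6 in the exon 6-7 line, where 3.46% and 4.1% of all genes stood. The count was 0 in both lines under every alternative of scaling, filter, fit and left-out mouse that was run.

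No transport motor was called between knockout and wild type. In the exon 7 line the median log2 fold change of the 17 was −0.07, with 16 below 0 and Kifc2 alone above it (0.01), whereas all genes tested had a median of −0.01 and 53.3% below 0. In the exon 6-7 line the median was 0.02, with 12 above and 5 below 0, against −0.00 and 49.4% above for all genes. The lean below 0 in the exon 7 line was not particular to the motors, as 19 of 22 light chains and cargo adaptors shared it. The other lists lay nearer the share of all genes. Below 0 were 16 of 26 dynein and dynactin genes, 15 of 23 tubulins and microtubule-associated proteins and 5 of 9 spindle and cytokinesis partners. Over the 17 genes the 95% intervals reached from −0.64 to 0.35 in exon 7 mice and from −0.49 to 0.61 in exon 6-7 mice. Standard errors of the 17 genes ran from 0.0756 to 0.221 in each line, and 3 mice a group limit the precision. All genes tested within the middle transcript lengths of the 25 members (3453 to 6866 bases) had medians of −0.02 in exon 7 mice and 0.03 in exon 6-7 mice. The members of those lengths, which are not the same set as the transport motors, had medians of −0.06 and 0.02. Sums of 6 oligodendrocyte markers were 4470 to 4788 in exon 7 KO, 4867 to 5126 in exon 7 WT, 4463 to 4612 in exon 6-7 KO and 5070 to 6382 in exon 6-7 WT, and their part in the transport values was not tested.

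Kif5b had the smallest p in the exon 7 line. Its means were 63.8 ± 1.98 in KO and 74.2 ± 7.23 in WT (SD, n = 3 each), with all 3 KO mice below all 3 WT mice, and the log2 fold change was −0.21 (SE 0.0964, 95% interval −0.42 to −0.00, limma adjusted p = 1). In the exon 6-7 line it was at 22.7 to 26.7 in KO and 21.4 to 24.98 in WT, a log2 fold change of 0.13 (SE 0.0964). The difference of these changes, exon 6-7 minus exon 7, was 0.34 (SE 0.136, 95% interval 0.04 to 0.63, limma adjusted p = 1). Kif5b in the exon 7 line changed by −0.08 between the libraries KO969 and WT628 and by −0.28 among the other 4 mice. Kif13b also had opposite signs in the lines, with a log2 fold change of −0.26 in exon 7 mice and 0.29 in exon 6-7 mice, and a difference of 0.55 (SE 0.206, limma adjusted p = 1). Its change was −0.13 between KO969 and WT628 and −0.32 among the other 4 exon 7 mice. In the exon 6-7 line its change was 0.52 between KO776 and WT778 and 0.17 among the other 4 mice. Kif5b and Kif13b were the 2 members with an unadjusted p under 0.05 for the difference, where 3.88% of all genes stood, and 0 members were called against 0.00704% of all genes. Over all genes the Spearman correlation of the change with transcript length was −0.18 in exon 7 mice, 0.35 in exon 6-7 mice and 0.36 for the difference. Over the 25 members it was −0.32 in exon 7 mice and −0.00 in exon 6-7 mice. The part of length in the opposite signs of Kif5b and Kif13b was not tested.

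Of the other transport motors, Kif13a was lower in all 3 exon 7 KO mice than in all 3 WT mice, at 5.52 to 6.199 against 6.31 to 6.48 scaled FPKM, with a log2 fold change of −0.12. Groups did not overlap for 3 of the 25 members in either line. In the exon 7 line 1 was above (3.27% of all genes) and 2 were below (3.76% of all genes). In the exon 6-7 line 2 were above (5.02% of all genes) and 1 was below (6.3% of all genes). The abundant motors Kif5a, Kif5c, Kif1a and Kif1b overlapped between KO and WT in both lines, with log2 fold changes between −0.16 and 0.08.

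**Figure D2:**
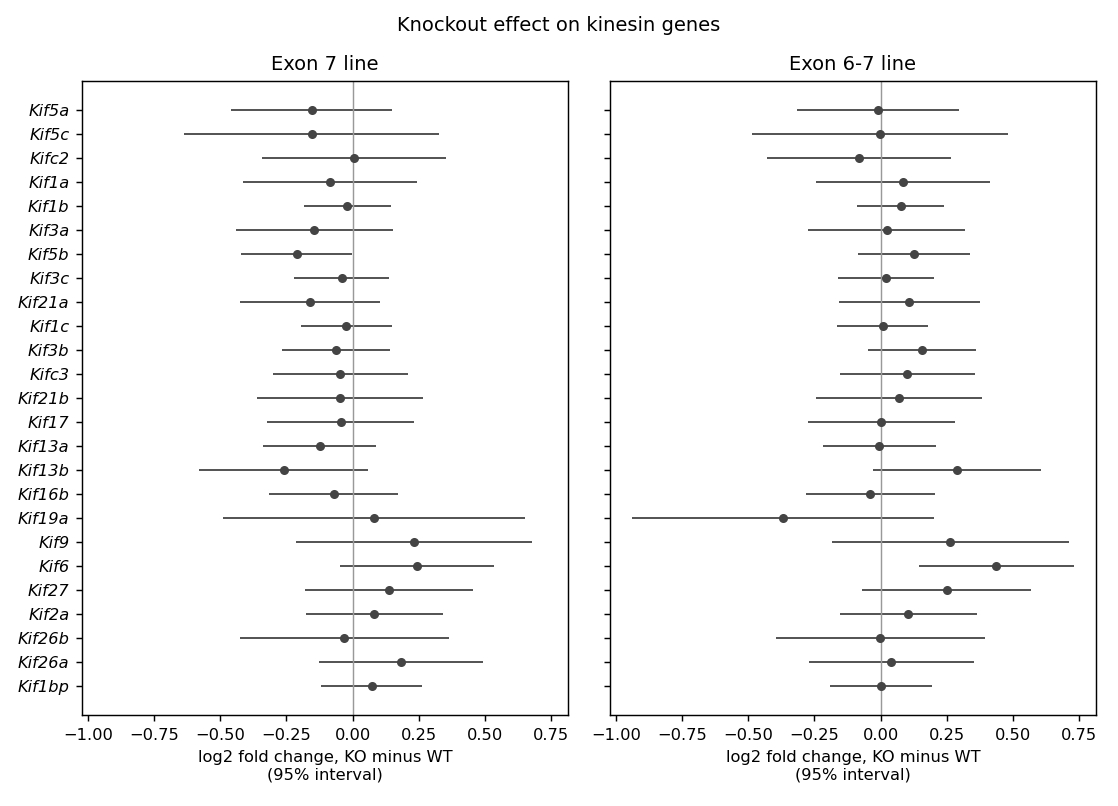
Log2 fold change of knockout minus wild type for the 25 kinesin genes tested, with 95% intervals from limma, in the exon 7 line (left) and the exon 6-7 line (right). Nearly all intervals include 0; those that do not are Kif5b in the exon 7 line (−0.21) and Kif6 in the exon 6-7 line (0.44), and neither had an adjusted p under 0.05.

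Of the cilia motors 0 were called in a knockout comparison. Kif6 (ENSMUSG00000023999, chr17:49615136-49909847, plus strand), a motor of ependymal cilia in mice, was at 1.42, 1.92 and 1.59 scaled FPKM in exon 6-7 KO mice KO776, KO777 and KO864 and at 1.09, 0.803 and 0.959 in WT778, WT809 and WT865. All 3 KO mice lay above all 3 WT mice, and the log2 fold change was 0.44 (SE 0.134, 95% interval 0.15 to 0.73, limma adjusted p = 1). In the exon 7 line Kif6 was at 1.39, 1.74 and 1.72 in KO969, KO990 and KO994 and at 0.931, 1.49 and 1.24 in WT628, WT993 and WT999. These groups overlapped, with KO969 below WT993, and the log2 fold change was 0.24 (SE 0.134, 95% interval −0.05 to 0.53). The mean knockout effect over both lines was 0.34 for Kif6 (SE 0.0946, 95% interval 0.13 to 0.55, limma adjusted p = 1), the smallest p of the 25 members; 0 of 25 were called there, against 0.0141% of all genes, and 1 stood at an unadjusted p under 0.05, against 3.63%. Within the 4 libraries that stood apart the change was 0.31 in exon 7 mice and 0.21 in exon 6-7 mice, and among the other 8 it was 0.21 and 0.55. The Kif6 promoter is shown because Kif6 had the smallest p of the 25 members for the mean knockout effect. Its 250 bases, chr17:49614922-49615171 on the plus strand of GRCm38.p6 (RefSeq), are written 5′ to 3′ with a CCAAT box and a GC box in capitals. They run past the gene start given above, since the RefSeq start differs from it.
Kif6: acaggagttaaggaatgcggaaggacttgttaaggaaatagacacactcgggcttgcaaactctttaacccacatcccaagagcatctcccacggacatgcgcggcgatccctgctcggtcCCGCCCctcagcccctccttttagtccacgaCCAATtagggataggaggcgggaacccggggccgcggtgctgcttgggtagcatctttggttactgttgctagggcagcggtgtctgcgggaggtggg

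Kif19a, which limits the length of motile cilia, was at 2.38, 5.82 and 4.24 in exon 7 KO, 2.32, 5.43 and 3.79 in exon 7 WT, 4.35, 5.94 and 5.78 in exon 6-7 KO, and 6.37, 7.30 and 7.86 in exon 6-7 WT. In the exon 6-7 line all 3 KO mice lay below all 3 WT mice (log2 fold change −0.37, SE 0.261, 95% interval −0.94 to 0.20), and in the exon 7 line the mice of the 2 libraries that stood apart were the lowest of each genotype. Kif27 and Kif9, both of motile cilia, had log2 fold changes of 0.14 and 0.23 in exon 7 mice and 0.25 and 0.26 in exon 6-7 mice. In the exon 7 line their signs turned between the libraries: between KO969 and WT628 they were −0.19 and −0.14, and among the other 4 mice 0.30 and 0.42. Kif27 in all 3 exon 6-7 KO mice (0.883 to 0.976) lay above all 3 WT mice (0.487 to 0.711). Kif7, which acts in Hedgehog signalling in primary cilia, and Kif24, a motor of centrioles, averaged 0.860 and 0.436 and were not tested under the filter. The levels of 8 ependymal marker genes, summed, were 17.6 to 34.3 in exon 7 KO, 17.99 to 21.3 in exon 7 WT, 39.5 to 48.5 in exon 6-7 KO and 28.0 to 41.3 in exon 6-7 WT. Of these 8, 5 were tested, and all 5 were above 0 in both knockout comparisons with 0 called. Sums of 6 choroid plexus markers ran from 1666 to 2289 in exon 7 KO, 1423 to 1726 in exon 7 WT, 6731 to 8410 in exon 6-7 KO and 42.1 to 8617 in exon 6-7 WT. Their part in the values of the cilia motors was not tested.

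The other tested members were called in neither knockout comparison. Kif2a, a kinesin-13 that takes microtubules apart, was at 53.3, 43.9 and 38.9 in exon 7 KO, 46.1, 39.4 and 42.1 in exon 7 WT, 21.3, 19.7 and 19.5 in exon 6-7 KO, and 19.7, 16.4 and 20.04 in exon 6-7 WT, with overlap in both lines; the gene Dimt1 covers 19.2% of its exonic bases on the opposite strand. Kif26b and Kif26a, atypical kinesins without motor activity, averaged 2.28 and 1.49. Kif1bp was at 87.3 to 89.6 in exon 7 KO and 80.5 to 86.8 in exon 7 WT, with a log2 fold change of 0.07 and all 3 KO mice above, and at 90.8 to 113 in exon 6-7 KO and 96.5 to 107 in exon 6-7 WT. Genes on the opposite strand cover 10.1% of the exonic bases of Kif1bp, 6.19% of Kif26b, 6.37% of Kif27 and 19.1% of Kif7. Of the low members, Kif12 was listed in 6 libraries, Kif28 in 10, Kif16bos in 3 and Kifc5c-ps in 2, and Kif22-ps and Kif4-ps in none.

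Mitotic kinesins were tested only with the filter on low values removed. Of the 14, 0 were called in the exon 7 line, against 0.0041% of all genes, and 0 in the exon 6-7 line, against 0.0205%. At an unadjusted limma p under 0.05 stood Kif2c (log2 fold change 0.28) and Kif18b (0.21) in the exon 7 line, and Kif18b (0.20) and Kif15 (−0.10) in the exon 6-7 line, each at an adjusted p of 1. In this fit 4.61% of all genes stood there in the exon 7 line and 4.48% in that of exons 6-7. Kif18b was at 0.430, 0.323 and 0.316 scaled FPKM in exon 7 KO and 0.198, 0.179 and 0.145 in exon 7 WT, with no overlap. It was at 0.366, 0.425 and 0.133 in exon 6-7 KO and 0.153, 0.146 and 0.107 in exon 6-7 WT, where KO864 lay among the WT mice. Kif2c was at 0.387, 0.372 and 0.404 in exon 7 KO and 0.0443, 0.238 and 0.144 in exon 7 WT. Levels this low rest on few fragments, and no counting error can be attached to them.

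The partners of kinesins were followed in 4 lists, and 0 of their tested genes were called in either knockout comparison; the 3 genes with the smallest p of each list are named. Light chains and cargo adaptors (22 genes tested) had medians of −0.04 in exon 7 mice and 0.00 in exon 6-7 mice. Plekhm2 (−0.18), Dlg1 (−0.17), the scaffold that Kif13b binds, and the kinesin light chain Klc4 (−0.19) came first in the exon 7 line. Mapk8ip1 (−0.14) and Mapk8ip2 (−0.08), scaffolds that bind kinesin light chains, and Trak2 (0.10), an adaptor of mitochondria, came first in the exon 6-7 line. Dynein and dynactin, the machinery of minus-end transport (26 genes), had medians of −0.02 in each line. The dynein light chain Dynlt3 (−0.20), the dynactin subunit Dctn3 (0.16) and the dynein adaptor Bicd2 (−0.11) came first in the exon 7 line, and Dctn3 (−0.14), Dynlrb1 (−0.14) and Dctn5 (−0.10) in the exon 6-7 line. Dctn3 thus had opposite signs in the lines, and the difference, exon 6-7 minus exon 7, was −0.30 (SE 0.117, limma adjusted p = 1).

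Tubulins and microtubule-associated proteins (23 genes) had medians of −0.04 in exon 7 mice and −0.08 in exon 6-7 mice. The dendritic protein Map2 (−0.13), the tubulin-binding Stmn1 (−0.15) and the beta tubulin Tubb5 (−0.08) came first in the exon 7 line. The alpha tubulins Tuba1c (0.71, limma adjusted p = 1) and Tuba4a (−0.15) and the neuronal beta tubulin Tubb3 (−0.23) came first in the exon 6-7 line. Of 18 spindle and cytokinesis partners, 9 were tested, with medians of −0.03 and −0.05. The kinetochore gene Nuf2 (0.39, limma adjusted p = 1), Racgap1 (−0.18), which works with Kif23, and Cdca8 (0.17) came first in the exon 7 line. Prc1 (−0.25), the partner of Kif4, Numa1 (0.10) and Birc5 (0.13) came first in the exon 6-7 line.

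Between the lines most transport motors differed. In the wild types, exon 7 minus exon 6-7, 15 of the 25 members were higher at a limma adjusted p under 0.05, against 34% of all genes, and 3 were lower, against 33.1%. In the knockouts 15 were higher, against 31.5% of all genes, and 3 were lower, against 30.3%. The 15 higher members include Kif26b and Kif27, which passed the filter through the exon 7 line, and without them 13 of 23 were higher in each genotype. The shares of all genes were taken with no such genes left out, so they do not match this count, and nothing is read from it. The 3 lower genes in the knockouts were 1 when KO777, KO864, KO969 or KO990 was left out. These contrasts share no mice with each other, but each shares its mice with the knockout comparisons. In 24 of the 25 members both had the same sign, and 17 were called in the same direction in both. The matching shares of all genes were not taken, so nothing is read from these counts. Line, litter, dissection, library preparation and sequencing cannot be told apart in these values.

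Of the 17 transport motors, 12 were higher in exon 7 mice in both genotypes: Kif5a, Kif5b, Kif5c, Kif1a, Kif1b, Kif3a, Kif3b, Kif3c, Kif13a, Kif13b, Kif21a and Kif21b. Of all genes 31.5% were higher in the knockouts and 34% in the wild types, and the share higher in both was not taken. The values with trends of transcript length removed are given below. Kif13b had the largest log2 fold change of them in the wild types, 1.44 in the knockouts and 1.99 in the wild types. It was followed by Kif1b, at 1.65 in the knockouts (limma adjusted p = 5.35e-08) and 1.75 in the wild types (SE 0.0756, limma adjusted p = 2.09e-08). Kif5b was at 1.33 and 1.67, Kif1a at 1.42 and 1.58, Kif5c at 1.38 and 1.54, and Kif21a at 1.23 and 1.49, in knockouts and wild types. Smaller were the changes of Kif3a (0.63 and 0.79), Kif3c (0.50 and 0.56) and Kif5a (0.42 and 0.57). Kif5c changed by 0.93 in the knockouts and 1.06 in the wild types between the libraries that stood apart, and by 1.61 and 1.78 among the other mice. The call of Kif5a in the knockouts was lost with FPKM as deposited (0.27, limma adjusted p = 0.147) and without KO776, KO990 or KO994.

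Kif1c was lower in exon 7 mice in both genotypes, by log2 fold changes of −0.31 (limma adjusted p = 0.0045) and −0.28 (limma adjusted p = 0.00747) in knockouts and wild types. Kifc3 was lower in the knockouts (−0.33, limma adjusted p = 0.0277), a call lost without KO777, KO864, KO969 or KO990, and was at −0.18 in the wild types, and Kif17, Kif16b and Kifc2 were called in neither. With the library set as a covariate Kifc2 was lower in the wild types (−0.19, limma adjusted p = 0.00548). Outside transport, Kif2a was higher by 1.12 and 1.14, Kif26b by 1.51 and 1.54 and Kif27 by 0.38 and 0.50 (both also called in each genotype in the fit with no filter), and Kif1bp was lower (−0.22 and −0.29). In the knockouts the call of Kif27 was lost without KO776, KO777, KO864, KO990 or KO994, and that of Kif1bp without any 1 of 9 of the 12 mice. Between KO969 and KO776 Kif27 changed by 0.09, Kif1bp by −0.05 and Kifc3 by −0.51. Among the other knockouts these 3 changed by 0.53, −0.30 and −0.24. Kif19a was at −0.35 in the knockouts and was lower in the wild types (−0.80, limma adjusted p = 0.0166). Kif19a changed by −1.15 between WT628 and WT778 and by −0.63 among the other 4 wild types, and without WT628 it was at −0.56 (limma adjusted p = 0.0734). With length and GC trends removed it was at −0.43 in the wild types (limma adjusted p = 0.141). Without the filter, of the 14 mitotic motors, 3 were higher in the knockouts (Kif11 0.31, Kif18a 0.31 and Kif15 0.13), against 20.3% of all genes, and 3 in the wild types (Kif18a 0.30, Kif23 0.28 and Kif15 0.12), against 22.2%. Kifc5b was lower in the wild types (−0.28), where 20.3% of all genes were, and 0 were lower in the knockouts, where 17.8% were. Of the cilia motors below the filter, Kif24 was higher in both (0.63 and 0.42) and Kif7 was lower in the wild types (−0.28).

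The makeup of the families is given as a description. Kif5a made up 51.5 ± 2.78% of the summed Kif5a, Kif5b and Kif5c FPKM in exon 7 KO, 51.3 ± 4.15% in exon 7 WT, 67.5 ± 2.63% in exon 6-7 KO and 68.0 ± 2.07% in exon 6-7 WT (SD, n = 3 each). Kif5c made up 39.2 ± 4.66% and 39.1 ± 5.44% in exon 7 mice and 26.2 ± 2.13% and 26.2 ± 1.71% in exon 6-7 mice, KO and WT in turn. Kif1c made up 6.80 ± 0.580% and 6.66 ± 0.583% of the Kif1 sum in exon 7 KO and WT, and 20.9 ± 0.698% and 21.7 ± 1.11% in exon 6-7 KO and WT. The kinesin-2 motors kept closer shares: Kif3a made up 52.8% and 54.4% of the Kif3 sum in exon 7 KO and WT, and 51.5% and 52.1% in exon 6-7 KO and WT.

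The line difference of a gene moved with transcript length across all genes. The Spearman correlation of the log2 fold change with the longest annotated transcript was 0.67 in the knockouts and 0.67 in the wild types over 14053 genes, and 0.70 and 0.65 over the 25 members. It describes genes that share the same 12 libraries and is no test. Kinesin transcripts were long, with a median of 6295 bases against 3296 for all genes. All genes within the middle lengths of the members (3453 to 6866 bases, 5261 genes) had a median change of 0.31 in the knockouts and 0.37 in the wild types, against 0.50 and 0.57 for the members of those lengths.

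**Figure D3:**
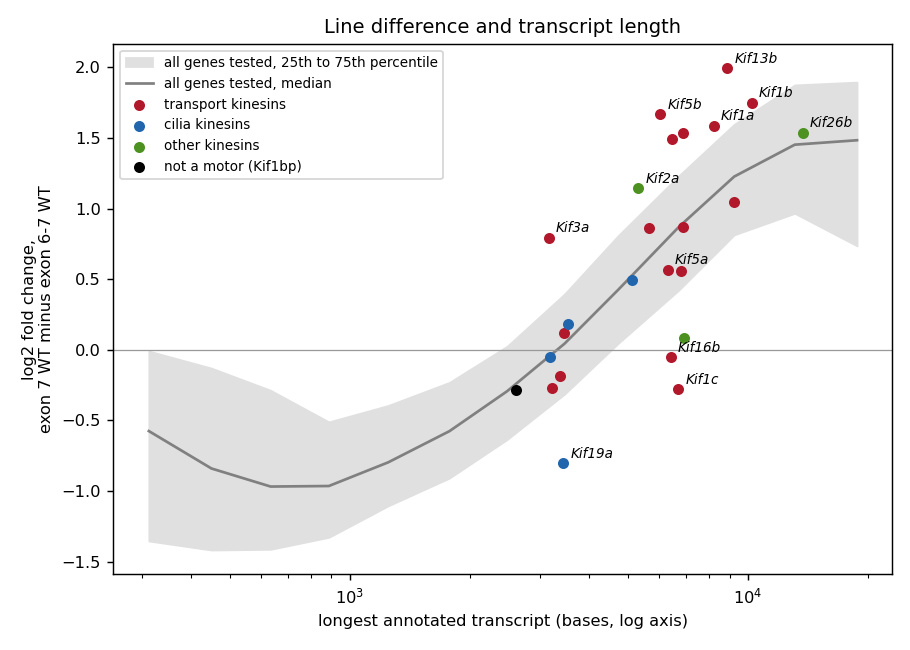
Log2 fold change of exon 7 WT minus exon 6-7 WT against the length of the longest annotated transcript (bases, log axis); points are the 25 kinesin genes, the grey line is the median and the band the 25th to 75th percentile of all genes tested. Kif13b (1.99), Kif1b (1.75), Kif5b (1.67) and Kif3a (0.79) are among the genes above the band, and Kif1c (−0.28), Kif16b (−0.05) and Kif19a (−0.80) are among those below it.

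After trends of transcript length and GC were taken out of each library, 9 members were higher in the knockouts, against 21.5% of all genes, and 9 in the wild types, against 23.8%. Lower were 2 in the knockouts, against 22% of all genes, and 3 in the wild types, against 24.7%. Higher in both genotypes were 8: Kif13b (0.61 in the knockouts and 1.07 in the wild types), Kif1a (0.72 and 0.82), Kif3a (0.59 and 0.73), Kif5b (0.52 and 0.73), Kif21a (0.46 and 0.62), Kif1b (0.57 and 0.53), Kif17 (0.35 and 0.47) and Kif2a (0.38 and 0.29). Kif5c was at 0.57 in the knockouts (limma adjusted p = 0.0576) and 0.61 in the wild types (limma adjusted p = 0.0413). The 9 in the knockouts include Kif26b (0.46, limma adjusted p = 0.0331), which passed the filter through the exon 7 line. In the wild types Kif26b was at 0.40 (limma adjusted p = 0.0509). The shares of all genes were taken with no such genes left out, and none was taken for calls in both genotypes, so nothing is read from these counts. Lower in both were Kif1c (−0.86 and −0.88) and Kif16b (−0.85 and −0.94), and Kif3c was lower in the wild types (−0.17, limma adjusted p = 0.0464). Kif5a was at −0.09 and 0.00 and was called in neither. Kif3b (0.07 and 0.21), Kif13a (0.11 and 0.17), Kif21b (0.19 and 0.25) and Kif27 (−0.10 and −0.07), higher in both genotypes before the removal, were also called in neither. How much of a line difference belongs to transcript length was not tested beyond this removal.

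**Figure D4:**
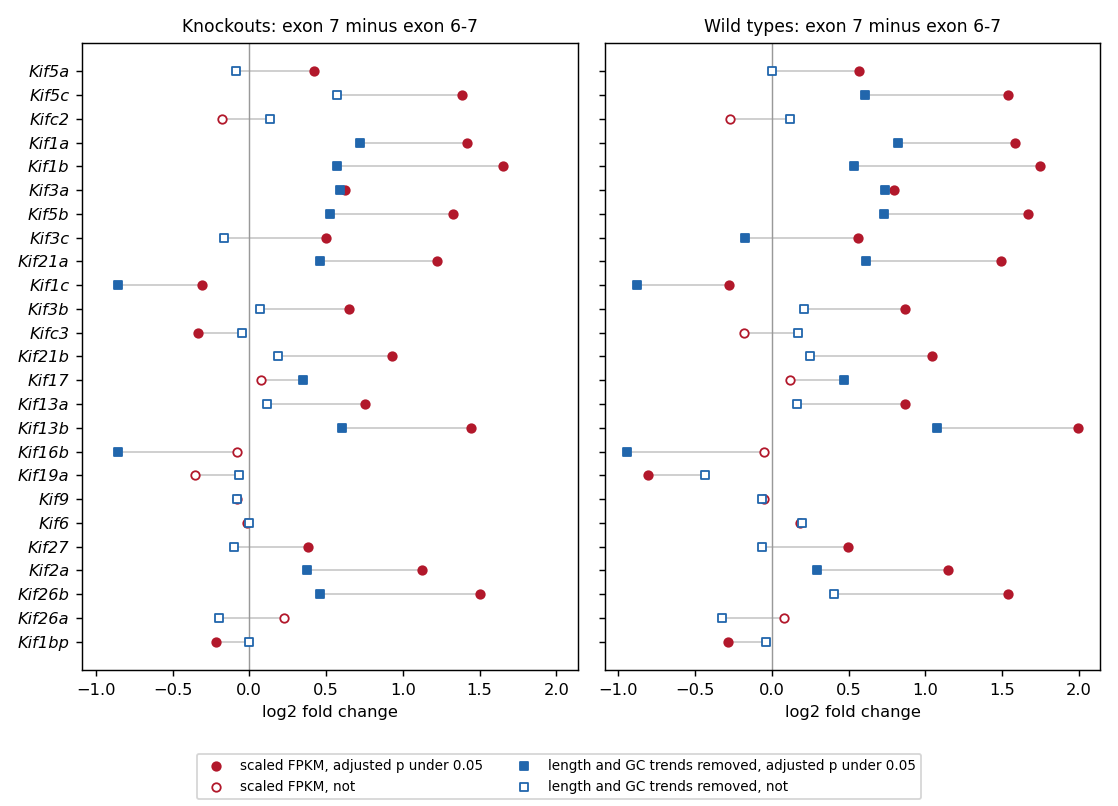
Log2 fold change of exon 7 minus exon 6-7 mice for the 25 kinesin genes, in knockouts (left) and wild types (right); circles are scaled FPKM, squares the values after removal of length and GC trends, and filled marks have a limma adjusted p under 0.05. Kif1a, Kif1b, Kif3a, Kif5b, Kif21a and Kif13b stay above 0 in both panels, Kif1c moves further below 0, and Kif5a and Kif3c end near or below 0.

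The partner lists held calls in both directions between the lines, beside shares of all genes of 31.5% higher and 30.3% lower in the knockouts and 34% higher and 33.1% lower in the wild types. Dynein and dynactin lay near these shares, and nothing is read from the counts of the other lists about kinesin partners. Of 22 light chains and cargo adaptors, 10 were higher and 5 lower in the knockouts and 12 higher and 6 lower in the wild types; Trak2 was at 1.20 in the knockouts and 1.38 in the wild types, Kidins220 at 1.16 and 1.36, and Lin7a at 1.07 and 1.09. Of 26 dynein and dynactin genes, 8 were higher and 8 lower in the knockouts and 9 higher and 7 lower in the wild types. The dynein adaptor Bicd1 was higher (1.75 and 1.89), and the dynactin subunit Dctn3 (−1.23 and −1.53) and the dynein light chain Dynlrb1 (−0.75 and −0.87) were lower. Of 23 tubulins and microtubule-associated proteins, 9 were higher and 11 lower in each genotype, with Map2 (1.52 and 1.74), Map1b (1.82 and 2.02) and Dclk1 (0.96 and 1.06) higher. Of the 9 spindle partners tested, 1 was higher and 1 lower in the knockouts and 1 higher and 3 lower in the wild types; Numa1 was higher (0.30 and 0.43) and Birc5 lower (−0.80 and −0.58) in both. Nuf2 was lower in the wild types (−0.72), and Aurka, a spindle kinase, was at −0.32 in the knockouts (limma adjusted p = 0.103). Markers of other cells also differed by line: sums of 6 immature neuron markers were 254 to 321 in exon 7 KO, 280 to 348 in exon 7 WT, 449 to 468 in exon 6-7 KO and 498 to 585 in exon 6-7 WT. This sum is carried by the abundant Tubb3 and Stmn1. Of the 6 markers 3 were higher and 2 lower in exon 7 mice in each genotype: Dcx (1.56 in the knockouts and 1.49 in the wild types) and Neurod1 (0.60 and 0.73) were higher, and Stmn1 (−0.84 and −0.87) was lower. Their part in the kinesin levels was not tested.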

How the data were processed

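Hippocampal poly(A) RNA of 12 mice was sequenced with TruSeq libraries, per the labels' protocols. CASAVA, GSNAP, Cufflinks and the mm10 build are named in the submitters' processing notes, and how reads were counted, by strand or over repeats, is not stated there or in the labels. The authors deposited 1 FPKM value per gene and mouse, with Ensembl release 74 identifiers per the file headers. Groups came from the genotype labels.

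Where a table did not list a gene, 0 was used. Each library was divided by its median ratio to the geometric mean of 12511 genes at 1 FPKM or more throughout. Symbols for 24065 of 24590 identifiers, coordinates, lengths and GC shares were read from GENCODE M21 (GRCm38, the build called mm10), and promoters from RefSeq GRCm38.p6. Genes with a mean of at least 1 scaled FPKM were tested, after 110 small RNA genes of that level were left out, which gave 14212 genes. The test was limma-trend (limma 3.58.1, R 4.3.3) on log2(scaled FPKM + 1), a scale that understates the change of low genes. The fit had 4 group means and 1 spread (8 residual degrees of freedom and a prior of 3.88). All tests are two-sided, and p-values were adjusted by Benjamini-Hochberg over all genes tested, with a threshold of 0.05. Each line's knockout was set against its wild type, the difference and mean of both effects were taken, and exon 7 mice were set against exon 6-7 mice within each genotype. The fit was tested on simulated data. Exonic overlaps and shared 50-base windows were counted from the annotation. Tables and figures used Python 3.11.15, pandas 2.3.3 and matplotlib 3.10.9.

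The members, functional classes and partner and marker lists were chosen with earlier results of these data known. Every member is accounted for, those with a mean of at least 1 FPKM by class and the others as levels. Of the partner lists, genes past the threshold in a knockout comparison and the 3 with the smallest p per comparison were named. The alternatives run were unscaled FPKM, quantile normalization, a pseudocount of 0.1 or 5, a filter at 5 FPKM or none, each line alone, array quality weights, robust empirical Bayes, the library set as a covariate, removal of length and GC trends, and each mouse left out.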

Additional observations from a re-analysis of the deposited data

How the results depend on the processing

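FPKM keep no read total, so the depth behind a value is unknown, and levels near or under 1 FPKM, among them all mitotic kinesins, whose means are under 1, are the least certain. No analysis paired by litter was made, because the sample titles give line, genotype and mouse number but no litter. The set of libraries that stood apart was fitted as a covariate among the alternatives. In the knockout comparisons, their difference and their mean, 0 kinesins were called under each alternative, and with each mouse left out the counts ran from 0 to 0. The cause was not tested for any change below.

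Of the counts over line differences, the 15 higher members became 9 in the knockouts and 9 in the wild types with length and GC trends removed, and the 3 lower ones in the wild types became 5 without a filter, where 45 members were tested. Transport motors higher in the knockouts, 12 against 31.5% of all genes, became 7 with the trends removed, against 21.5% of all genes. The 1 transport motor lower in the wild types became 3 with the trends removed, 2 with FPKM as deposited and 2 with the library set as a covariate. With each mouse left out, higher members ran from 13 to 15 in the knockouts and stayed at 15 in the wild types, lower ones ran from 1 to 3 and from 2 to 3, and transport motors from 11 to 12 higher and from 1 to 2 lower in the knockouts, and at 12 higher and 1 lower in the wild types. The lower counts fell to 1 in the knockouts without KO777, KO864, KO969 or KO990.

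Among single genes, these line differences turned round. With FPKM as deposited, which shifted the median of all genes to −0.13 in the knockouts and −0.14 in the wild types (against −0.00 in each as reported), Kif17 came to −0.0603 in the knockouts and −0.0170 in the wild types and Kif26a to −0.00924 in the wild types. With quantile normalization Kif17 came to −0.0764 and −0.0455, Kifc2 to 0.17 and 0.20, Kif1bp in the knockouts to 0.0293 and Kif26a in the wild types to −0.0144. With length and GC trends removed Kif26a came to −0.20 and −0.33, Kif27 to −0.10 and −0.0652, Kif3c to −0.16 and −0.17, Kifc2 to 0.13 and 0.12, Kif5a in the knockouts to −0.0897, Kif1bp in the knockouts to 0.000575, Kif6 in the knockouts to 5.203e-05 and Kifc3 in the wild types to 0.17. With the library set as a covariate Kif6 in the knockouts came to 0.0626 and Kif9 to 0.00472 and 0.0362, and with array weights Kif9 in the knockouts came to 0.0723. With a mouse left out, Kif6 in the knockouts ran from −0.0744 to 0.0587, Kif9 from −0.25 to 0.17 in the knockouts and from −0.13 to 0.10 in the wild types, and Kif16b in the wild types from −0.10 to 0.0437.

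Calls near the threshold were lost for Kif5a in the knockouts with FPKM as deposited (0.27, limma adjusted p = 0.147) and without KO776, KO990 or KO994, for Kif19a in the wild types without WT628 (−0.56, limma adjusted p = 0.0734), for Kif27 in the knockouts under 4 alternatives and without KO776, KO777, KO864, KO990 or KO994, and for Kif1bp in the wild types with quantile normalization (limma adjusted p = 0.988). With length and GC trends removed, calls were also lost for Kif1bp (−0.0366, limma adjusted p = 0.72) and Kif19a (−0.43, limma adjusted p = 0.141) in the wild types. This removal also took the calls of Kif3b, Kif13a, Kif21b, Kif5a and Kif27 in both genotypes. Lost with it as well were the calls of Kif26b in the wild types and of Kif5c, Kifc3 and Kif1bp in the knockouts. Kif3c was then called higher in neither genotype. The library set as a covariate added Kifc2 in the wild types (−0.19, limma adjusted p = 0.00548) to the transport motors called lower.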
